A study of Sus scrofa with 14 samples.

Results

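Blood vessel endothelial nuclei of the pig mammary gland were taken from single-nucleus RNA profiles as nuclei with at least 300 detected genes, UMIs (unique molecular identifiers, counted RNA molecules) in at least 2 of 9 vessel genes (ADGRL4, AQP1, CLEC1A, PTPRB, CD93, ACKR1, BTNL9, MMRN2 and CYYR1), and no UMI in EPCAM, COL1A1, RGS5, CD163, CD3E, MMRN1 or LYVE1. These last 7 genes mark epithelium, fibroblasts, pericytes, macrophages, T cells and, for MMRN1 and LYVE1, lymphatic vessels. The choice gave 2355 of 127926 nuclei. The nuclei came from frozen mammary tissue of Sus scrofa sows, multiparous and in a second breeding cycle, at 5 stages with 2 glands each: day 90 of gestation (G90), days 0 and 20 of lactation (L0 and L20), and days 2 and 7 after natural involution began (PI2 and PI7). No agent or genetic change separated the groups. The study's methods give 2 tissues per stage for nuclei, and its results report 10 glands profiled, with glands taken from 10 female pigs. The labels do not tie each library to a named sow, so p-values measure the spread between these libraries.

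Endothelial cells line every vessel and take on different programs along the vascular tree. Arterial cells use Notch signalling, capillary cells carry out exchange of lipids and solutes, and the cells of small veins display the adhesion molecules that leukocytes use to leave the blood. In the mammary gland, capillaries surround the alveoli and deliver the fatty acids, glucose and amino acids from which milk is made, and the bed grows with the epithelium and is remodelled after weaning.

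The total of UMIs over the endothelial nuclei of a gland ran from 87001 at L0 replicate 2 to 1930825 at PI7 replicate 1, and the median UMIs per endothelial nucleus ran from 1274 to 2885. Levels are given as counts scaled to 1000000 UMIs (CPM), and at the lowest of these totals 1 UMI is worth 11.5 CPM, so low genes are poorly resolved there. The libraries shared between 52 and 205 barcodes pairwise over 45 pairs, but only 4 shared barcodes in all belonged to endothelial nuclei. Several glands stood apart. Spearman's correlation of gene levels with the other glands, a description that also varies with depth, was 0.61 to 0.74 for L20 replicate 1 (0.61 with L20 replicate 2), 0.63 to 0.74 for PI2 replicate 2 (0.65 with PI2 replicate 1), 0.63 to 0.76 for G90 replicate 2 and 0.62 to 0.76 for L0 replicate 2, the gland with the fewest UMIs. At G90 replicate 2 the interferon-stimulated genes and the milk genes were both high, in endothelial and in all other nuclei, and values that rest on this gland are given with those of its partner.

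The general endothelial genes, which the choice did not use, were high in these nuclei. PECAM1, a junctional adhesion molecule, stood at 1757 CPM against 231 CPM in all other nuclei, and VWF, the clotting factor carrier stored in endothelium, at 902 against 65.6 CPM. CDH5, the cadherin of endothelial junctions, stood at 455 against 27.0 CPM, and FLT1, a receptor of vascular endothelial growth factor (VEGF), at 287 against 15.2 CPM. No test was made of these differences, since the nuclei were chosen by genes that accompany them. The lymphatic transcription factor PROX1 was at 21.4 CPM, against 226 CPM in 5119 nuclei with lymphatic genes. The chemokine CCL21 was at 25.8 against 699.6 CPM. PDGFRB, the platelet-derived growth factor receptor of pericytes, was at 14.9 CPM, against 746 CPM in 512 mural nuclei. Those comparison nuclei were chosen by lymphatic or mural genes, so these contrasts follow from the choice and are only a description. Against all other nuclei, as means over glands, CCL21 and PDGFRB were lower in endothelial nuclei, but PROX1 was not.

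Of the 9 vessel genes, AQP1, a water channel, carries no symbol in the deposited gene table, so the choice rested on the other 8. The identifier that the reference names AQP1 had UMIs in 34.7% of endothelial nuclei and in 1.31% of all other nuclei, at 429 and 10.1 CPM. The nuclei just inside the threshold, with exactly 2 vessel genes, numbered 848, or 36.0% of the total. Their PECAM1 level was 984 CPM and their CDH5 level 258 CPM, against 2181 and 572 CPM in nuclei with 4 or more vessel genes. In the 6141 nuclei just outside it, with exactly 1 vessel gene, the levels were 272 and 36.2 CPM. Before the exclusion of other cell types, 4637 nuclei had 2 or more vessel genes. A UMI of MMRN1, found in 975 of them, was the most frequent reason for exclusion, ahead of COL1A1 in 684 and EPCAM in 534.

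The vessel genes used for the choice differed in how widely they were seen. PTPRB, a receptor tyrosine phosphatase of endothelium, had UMIs in 68.6% of the nuclei, and ADGRL4, an adhesion G protein-coupled receptor, in 55.7%. CD93, a lectin-like receptor of endothelium, was found in 33.4%, the chemokine-binding receptor ACKR1 in 21.3% and BTNL9, of the butyrophilin family, in 19.8%. On Sscrofa11.1, the build of the files, PTPRB lies on chromosome 5 from 34656460 to 34794838, ACKR1 on chromosome 4 from 91224089 to 91225610 and BTNL9 on chromosome 2 from 57728520 to 57745249. The share of endothelial nuclei with BTNL9 ran from 7.43% at G90 replicate 1 to 63.6% at PI2 replicate 2, and the share with ACKR1 from 7.79% at G90 replicate 2 to 41.6% at L20 replicate 1. These shares are a description, since the genes chose the nuclei and depth differed between glands.

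**Figure D1:**
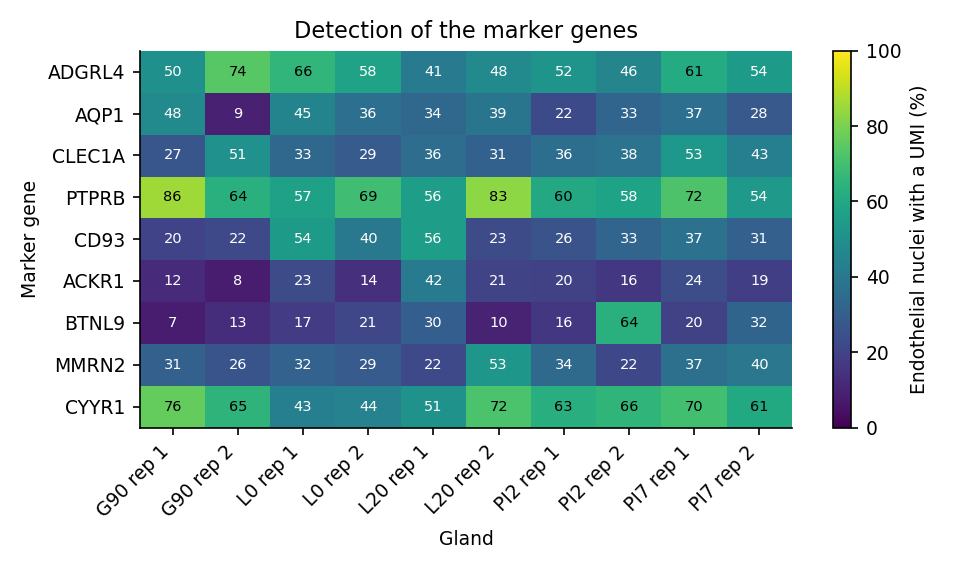
Share of endothelial nuclei with at least 1 UMI of each vessel gene (rows) in each gland (columns), in percent, by colour and printed value. PTPRB and CYYR1 were seen in at least 43.2% of nuclei in every gland, while BTNL9 ranged from 7.43% to 63.6%.

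The share of all nuclei that met the choice was highest at PI7. Candidates with a UMI of an excluded gene, lymphatic ones among them, are left out. Exclusion took 1761 candidates to 792 at PI7 replicate 1 and 60 to 52 at L0 replicate 2. The paper's endothelial cell type, whose markers include MMRN1, was a larger fraction at every stage and about equal at PI2 and PI7. The share here was 1.76% (202 nuclei) and 0.412% (77) in G90, 1.41% (162) and 0.552% (52) in L0, and 1.06% (137) and 2.17% (333) in L20. The PI2 glands held 1.91% (238) and 0.585% (55), and the PI7 glands 4.75% (792) and 3.05% (307). The exact 95% binomial interval was 4.43% to 5.08% at PI7 replicate 1 and 2.72% to 3.40% at its partner, and both lay above the share of every gland of the other stages; these intervals cover counting error only. Glands of 1 stage were far apart: the higher share was 4.28 times the lower in G90, 2.56 times in L0, 2.05 times in L20, 3.27 times in PI2 and 1.56 times in PI7.

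**Figure D2:**
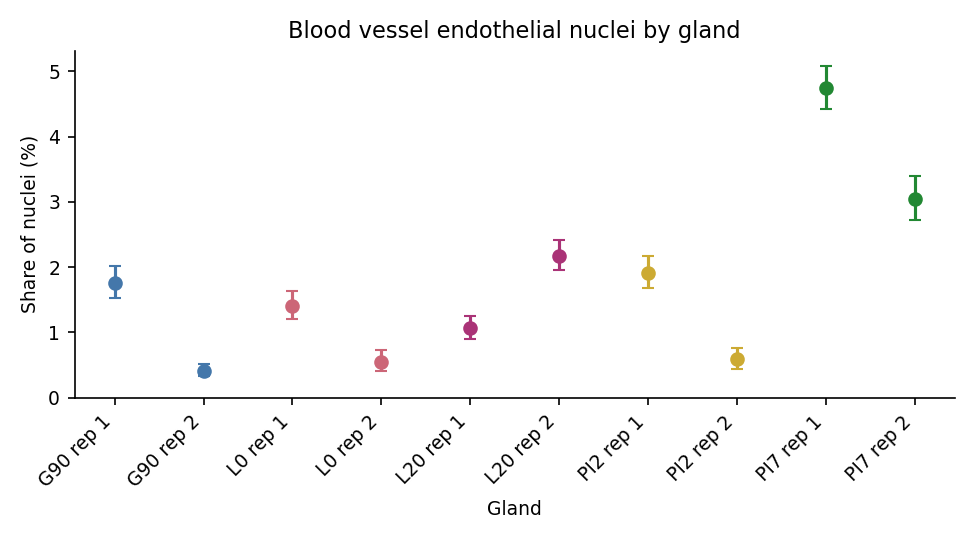
Endothelial nuclei as a percent of all nuclei with at least 300 genes, 1 point per gland, coloured by stage; bars are exact 95% binomial intervals. The PI7 glands, at 4.75% and 3.05%, sit above the other 8.

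The 4 lactation glands averaged 1.30% ± 0.681 (SD, n = 4) and the other 6 glands 2.08% ± 1.62 (SD, n = 6). The groups overlapped, and the difference, -0.778 percentage points, did not exceed what random splits of all glands give (two-sided exact permutation test over 210 splits, p = 0.429). Those splits mix stages, so this p also takes in differences between stages. Without PI7 replicate 1 the difference was -0.244 percentage points (exact permutation p = 0.706). Its direction rested on PI7: the mean was 1.09% in G90 and 1.25% in PI2, against 0.982% in L0 and 1.62% in L20. With every nucleus thinned to 500 UMIs the PI7 glands were still the highest, at 3.24% and 2.19%, with the next gland at 1.45%. Taken over nuclei without UMIs of 7 epithelial genes, the shares at PI7 were 6.25% and 5.38%, and L0 replicate 1, where only 396 such nuclei were left, reached 6.06%. Single-nucleus shares depend on how many nuclei of each type were released from the tissue, whose part in these values was not tested.

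Nuclei with ACKR1 and nuclei with BTNL9 were nearly separate sets. Of the 2355 nuclei, 495 had ACKR1 without BTNL9, 459 had BTNL9 without ACKR1, and 7 had both. Both genes belong to the choice, so the same was counted in the 2192 nuclei that held 2 or more of the other vessel genes: BTNL9 was seen in 1.39% of those with ACKR1 and in 20.8% of those without. The median depth was 2399 UMIs in ACKR1 nuclei and 1905 in BTNL9 nuclei. The split was made after the values were seen, and the levels below are a description with no test; "in 7 of 7 glands" refers to the glands with at least 10 nuclei of each kind.

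Of 11 venous genes with UMIs, 9 were higher in ACKR1 nuclei. SELP (P-selectin, which captures rolling leukocytes) stood at 232 CPM in ACKR1 nuclei and 5.06 CPM in BTNL9 nuclei. NR2F2, the transcription factor of venous identity, stood at 212 against 29.3 CPM, and VCAM1, a ligand of leukocyte integrins, at 109 against 10.1 CPM. IL1R1, a receptor of interleukin 1, was at 1305 against 174 CPM and ICAM1, another integrin ligand, at 176 against 43.5 CPM. Each of these 5 genes was higher in ACKR1 nuclei in 7 of 7 glands. VWF was less unequal, at 1438 against 756 CPM, and was higher in ACKR1 nuclei in 7 of 7 glands too. The exceptions were NRP2, a VEGF and semaphorin receptor, at 189 CPM in ACKR1 and 261 CPM in BTNL9 nuclei, and, in the summed nuclei alone, CLU, at 347 and 354 CPM; within glands CLU was higher in ACKR1 nuclei in 6 of 7.

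Of 20 lipid genes, 15 were higher in BTNL9 nuclei and 5 in ACKR1 nuclei, among them ACSL5, an acyl-CoA synthetase, at 94.1 CPM in BTNL9 and 139 CPM in ACKR1 nuclei. CD36, a fatty acid translocase, stood at 3045 CPM in BTNL9 nuclei and 749 CPM in ACKR1 nuclei, and FABP5, a fatty acid carrier, at 1158 against 363 CPM, both in 7 of 7 glands. FABP4, a related carrier, was at 929.6 against 223 CPM and higher in BTNL9 nuclei in 6 of 7 glands. GPIHBP1, which holds lipoprotein lipase on the capillary wall, had 289 UMIs in BTNL9 nuclei and 0 of 1293244 UMIs in ACKR1 nuclei, which is at least 126-fold higher in BTNL9 nuclei when the floor is set at 3 counts over all ACKR1 nuclei. RGCC, a cell cycle regulator found in capillaries, was at 261 against 24.0 CPM, and the VEGF receptor KDR at 496 against 231 CPM, both in 7 of 7 glands.

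Of 15 arterial genes, 12 were higher in BTNL9 nuclei and 3 (GJA4, HEY2 and GATA2) in ACKR1 nuclei. The receptor NOTCH4 stood at 210.4 against 28.6 CPM and the VEGF co-receptor NRP1 at 486 against 230.4 CPM, both higher in BTNL9 nuclei in 7 of 7 glands. SEMA3G, a semaphorin of arteries, stood at 88.0 CPM in BTNL9 nuclei and 6.96 CPM in ACKR1 nuclei, higher in 7 of 7 glands, and the chemokine CXCL12 at 429.9 against 78.9 CPM, higher in 6 of 7. EFNB2, an ephrin of arteries, was nearly equal, at 100.1 against 88.2 CPM, and GJA4, an arterial connexin, was higher in ACKR1 nuclei in 7 of 7 glands, at 18.6 against 8.09 CPM (24 and 8 UMIs). Of 6341 named genes with at least 60 UMIs over both kinds, 257 (4.05%) were higher in ACKR1 nuclei and 264 (4.16%) higher in BTNL9 nuclei in 7 of 7 glands. Among the largest ratios outside the gene lists were TLL1, a tolloid-like protease, at 1355 against 31.4 CPM, and the alarmin IL33 at 782 against 40.5 CPM, both on the ACKR1 side. On the BTNL9 side were ADGRF5, an adhesion receptor of capillaries, at 1595 against 154 CPM, and SPARCL1, a matrix protein, at 650.4 against 76.6 CPM.

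**Figure D3:**
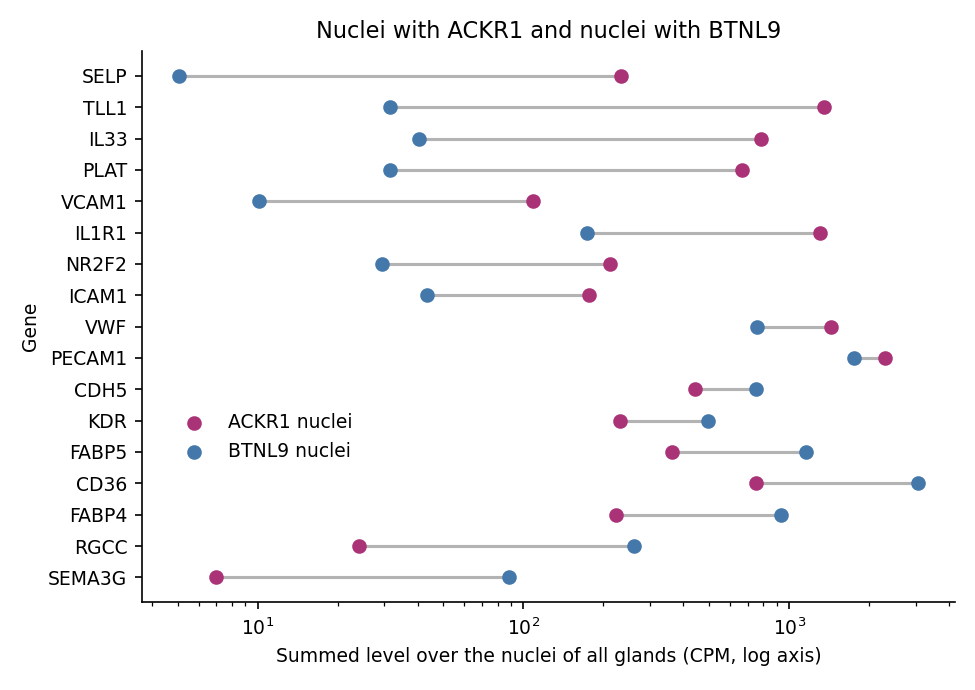
Level of selected genes in CPM (log axis), summed over nuclei with ACKR1 and no BTNL9 and over nuclei with BTNL9 and no ACKR1; a line joins both values of a gene. SELP, at 232 and 5.06 CPM, and SEMA3G, at 6.96 and 88.0 CPM, lie at opposite ends.

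To ask how gene expression in the endothelium moved through the cycle, the UMIs of each gland's endothelial nuclei were summed and 9070 genes were tested with edgeR's quasi-likelihood test, a gene being called at a Benjamini-Hochberg adjusted p under 0.05 and an absolute log2 fold change over 1. No gene was called in any of 5 comparisons. For L0 against G90, 0 genes were called (0% of those tested), 507 (5.59%) had an unadjusted p under 0.05 and DESeq2 called 17. For L20 against L0, 0 were called (0%), 577 (6.36%) had an unadjusted p under 0.05 and DESeq2 called 46. For PI2 against L20, 0 were called (0%), 308 (3.40%) had an unadjusted p under 0.05 and DESeq2 called 0. For PI7 against PI2, 0 were called (0%), 145 (1.60%) had an unadjusted p under 0.05 and DESeq2 called 1. For lactation against the other stages, 0 were called (0%), 344 (3.79%) had an unadjusted p under 0.05 and DESeq2 called 13. In that comparison DESeq2 gave no adjusted p for most genes, so its calls were adjusted over far fewer genes than edgeR's.

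The spread between glands of a stage was large, with a common biological coefficient of variation of 0.449. In counts simulated at that spread for L20 against L0 over 8914 genes, the test recovered 9 of 92 genes changed 4-fold and 76 of 94 changed 16-fold, with 6 false calls. At a simulated coefficient of variation of 0.2, over 8510 genes, it recovered 55 of 91 changed 4-fold and 90 of 93 changed 16-fold, with 7 false calls. The other comparisons were not simulated. The values below are given by gland, and none of them passed the test across all genes. The mix of ACKR1 and BTNL9 nuclei also differed between glands, and its part in the stage values was not tested. With 2 glands against 2, groups fail to overlap often: in 37.1% of all genes for L0 against G90, 33.0% for L20 against L0, 24.3% for PI2 against L20 and 29.5% for PI7 against PI2, and in 0.805% for lactation against the other stages. Of all genes tested, 46.7% were estimated higher at L0 than at G90 and 56.8% higher at L20 than at L0, against which the counts of direction below are to be read.

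Of 230 tested genes in the lists of endothelial function, chosen with earlier results of these data known, 79 (34.3%) had glands that did not overlap between G90 and L0 and 76 (33.0%) between L0 and L20, close to the share over all genes. The numbers were 62 (27.0%) for PI2 against L20, 71 (30.9%) for PI7 against PI2 and 2 (0.870%) for lactation against the other stages.

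Junction genes were estimated higher at L0 than at G90 for 11 of 12 tested, 0 of them called (median log2 fold change 0.51, against -0.06 over all genes). Without G90 replicate 2 the number higher fell to 7 of 12, with a median of 0.37. CLDN5, the claudin that seals endothelial tight junctions, stood at 61.2 and 0 CPM in G90, 184 and 207 in L0, 387 and 406 in L20, 200.5 and 242 in PI2, and 292 and 388 in PI7. Both G90 glands lay below all 8 others, and the log2 fold change of L0 against G90 was 2.44 (SE 0.79, edgeR adjusted p = 0.724). Without G90 replicate 1 CLDN5 was called (edgeR adjusted p = 0.0433), but that fit sets 1 G90 library with 0 CLDN5 UMIs against L0 and takes the spread from the other stages, so it is no support for a change. CDH5 stood at 215 and 143 CPM in G90, 381 and 540.2 in L0, 1139 and 319 in L20, 462 and 329 in PI2, and 543 and 536 in PI7, again lowest in the G90 glands (L0 against G90 log2 fold change 1.32, SE 0.58, edgeR adjusted p = 0.879). The most highly expressed gene of the list, PECAM1, ran from 884 to 1951 CPM, lowest at G90 replicate 2, with G90 replicate 1 at 1698 CPM.

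Lipid genes, taking in uptake receptors and carriers, were estimated higher in L0 than in G90 for 12 of 17 tested and lower in L20 than in L0 for 10 of 17, with none called. For L0 against G90 the median log2 fold change was 0.51, and without G90 replicate 2 it was 1.33, with 13 of 17 estimated higher. Milk genes were estimated higher in the same comparison for 6 of 6, at 271 and 5426 CPM in sum at G90 and 6869 and 4632 at L0, and their part in the lipid values was not tested. FABP3, a fatty acid carrier of the list, stood at 59.5 and 168 CPM in G90, 164 and 149 in L0, and 73.9 and 3.45 in L20. CD36 stood at 69.4 and 678 CPM in G90, 1202 and 1115 in L0, 552 and 1039 in L20, 949 and 1169 in PI2, and 1580 and 2067 in PI7. The PI7 glands were the highest and G90 replicate 1 the lowest (L0 against G90 log2 fold change 1.67, SE 0.77, edgeR adjusted p = 0.885). ABCA1, a cholesterol exporter, stood at 57.9 and 63.1 CPM in G90, below every later gland, at 149 and 253 in L0, 244 and 300.1 in L20, 284 and 156 in PI2, and 372 and 483 in PI7. Its log2 fold change of L0 against G90 was 1.68 (SE 0.51, edgeR adjusted p = 0.680). SCARB1, a receptor of high-density lipoprotein, stood at 296 and 147 CPM at L20 and 650.3 and 1013 at PI2, without overlap (log2 fold change 1.86, SE 0.55, edgeR adjusted p = 1).

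GPIHBP1 was low in G90, at 6.61 and 8.42 CPM (4 and 2 UMIs), and stood at 42.9 and 34.5 in L0, 130.5 and 11.5 in L20, 200.5 and 251 in PI2, and 59.0 and 233 in PI7. The higher L20 gland was 11.3 times the lower, and those of PI2 did not overlap with them. Both GPIHBP1 and SCARB1 were higher in BTNL9 nuclei, SCARB1 at 1118 against 135 CPM in ACKR1 nuclei. BTNL9 was seen in 29.9% and 9.61% of endothelial nuclei at L20 and in 16.4% and 63.6% at PI2. The part of this mix in the values of these genes was not tested.

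Flow-responsive and tone genes were estimated higher at L20 than at L0 for 10 of 11 tested, 0 of them called (median log2 fold change 0.75, against 0.14 over all genes). KLF2, a transcription factor that laminar flow induces in endothelium, stood at 114 and 71.6 CPM in G90, 48.0 and 11.5 in L0, 296 and 184 in L20, 306 and 450.1 in PI2, and 321 and 347 in PI7. All 6 glands from L20 on lay above all 4 earlier ones. The log2 fold change of L20 against L0 was 2.64 (SE 0.61, edgeR adjusted p = 0.216), and DESeq2 called it (adjusted p = 0.0305), although L0 replicate 2 held only 1 KLF2 UMI. GUCY1A1, a subunit of the nitric oxide receptor, ran the other way, at 576 and 322 CPM at L0 and 113 and 179 at L20 (log2 fold change -1.66, SE 0.52, edgeR adjusted p = 0.495). EDN1, the vasoconstrictor endothelin, ranged from 46.0 to 389 CPM, and its highest gland was G90 replicate 1 while G90 replicate 2 stood at 71.6.

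Basement membrane genes, which encode the sheet on which the endothelium sits, were estimated higher in L0 than in G90 for 10 of 14 tested and lower in L20 than in L0 for 13 of 14, none called. The first of these counts rested on G90 replicate 2: without it 7 of 14 were estimated higher and the median log2 fold change of L0 against G90 went from 0.40 to 0.06. The fall in the sum at L20 lay in 1 gland: the 15 genes summed to 6104 and 7655 CPM at L0, 7541 CPM at L20 replicate 1 and 3262 CPM at L20 replicate 2. In L20 replicate 1 COL4A2, HSPG2, LAMA5 and COL15A1 lay above both L0 glands. COL4A1, a collagen IV chain, stood at 437 and 459 CPM in G90, 1288 and 1805 in L0, 1583 and 315 in L20, 425 and 969 in PI2, and 588 and 769.8 in PI7. The L0 glands lay above both G90 glands (log2 fold change 1.77, SE 0.68, edgeR adjusted p = 0.820), and the L20 glands were far apart. SPARC, a collagen-binding matrix protein, followed the same order, at 227 and 152 CPM in G90, 674 and 782 in L0, and 544 and 218 in L20 (L0 against G90 log2 fold change 1.92, SE 0.58, edgeR adjusted p = 0.680). LAMA3, a laminin chain, stood at 34.8 and 159 CPM at L20 and 513 and 286 at PI2 (log2 fold change 1.84, SE 0.68, edgeR adjusted p = 1).

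The smooth muscle actin ACTA2 was highest in both L0 glands. Summed over 7 mural genes, of which ABCC9 was at 0, endothelial nuclei held 485 and 805 CPM at L0 and 34.6 to 285 CPM in the other 8 glands. ACTA2 and MYH11, which myoepithelial cells also express, made up 462 and 793 CPM of these L0 sums, though MYH11 stood at 124 and 333 CPM at L0 and 147 and 134 at PI7. The other 5 mural genes, PDGFRB among them, summed to 22.7 and 11.5 CPM at L0 and 8.66 to 56.2 CPM elsewhere. The 6 myoepithelial genes summed to 141 and 115 CPM at L0, 352 CPM at L20 replicate 1 and 184 and 193 CPM at PI7; of them only CNN1 had both L0 glands highest, at 30.3 and 46.0 CPM against 9.78 or less. ACTA2 stood at 338 and 459.8 CPM at L0 and 43.5 and 5.75 at L20 (log2 fold change -4.36, SE 0.94, edgeR adjusted p = 0.179). ACTA2 was called by DESeq2 (adjusted p = 0.00106), and over all edgeR and DESeq2 alternatives its adjusted p ran from 1.22e-05 to 0.869. The part of contractile cells in the basement membrane values was not tested.

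Growth factor genes were mixed. Of 15 listed angiogenic tip cell genes, which mark the leading cells of a sprout, 11 passed the filter on low counts. Of these 11, 10 were estimated higher at L0 than at G90 and 0 were called (median log2 fold change 1.35, and 1.11 without G90 replicate 2). Some listed genes had very few UMIs: ESM1 held 0 in each G90 and L0 gland. KCNE3 held 1 and 0 UMIs at G90 and 2 and 0 at L0. The most highly expressed, PDGFB, the growth factor that recruits pericytes, stood at 72.8 and 58.9 CPM at G90 and 119 and 241 at L0. ANGPT2, a destabilising ligand of the TEK receptor, was an exception, at 146 and 206 CPM at G90 and 68.2 and 103 at L0. Of 12 VEGF and angiopoietin genes, 10 were estimated lower at L0 than at G90 and 0 were called. PDGFD, another platelet-derived growth factor, stood at 728 and 926 CPM at G90 and 308 and 229.9 at L0, and from 147 to 507 in the later glands (L0 against G90 log2 fold change -1.60, SE 0.66, edgeR adjusted p = 0.870). The transcription factor SOX18 stood at 76.1 and 50.5 CPM at G90 and 202 and 195 at L0 (log2 fold change 1.61, SE 0.57, edgeR adjusted p = 0.759).

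**Figure D4:**
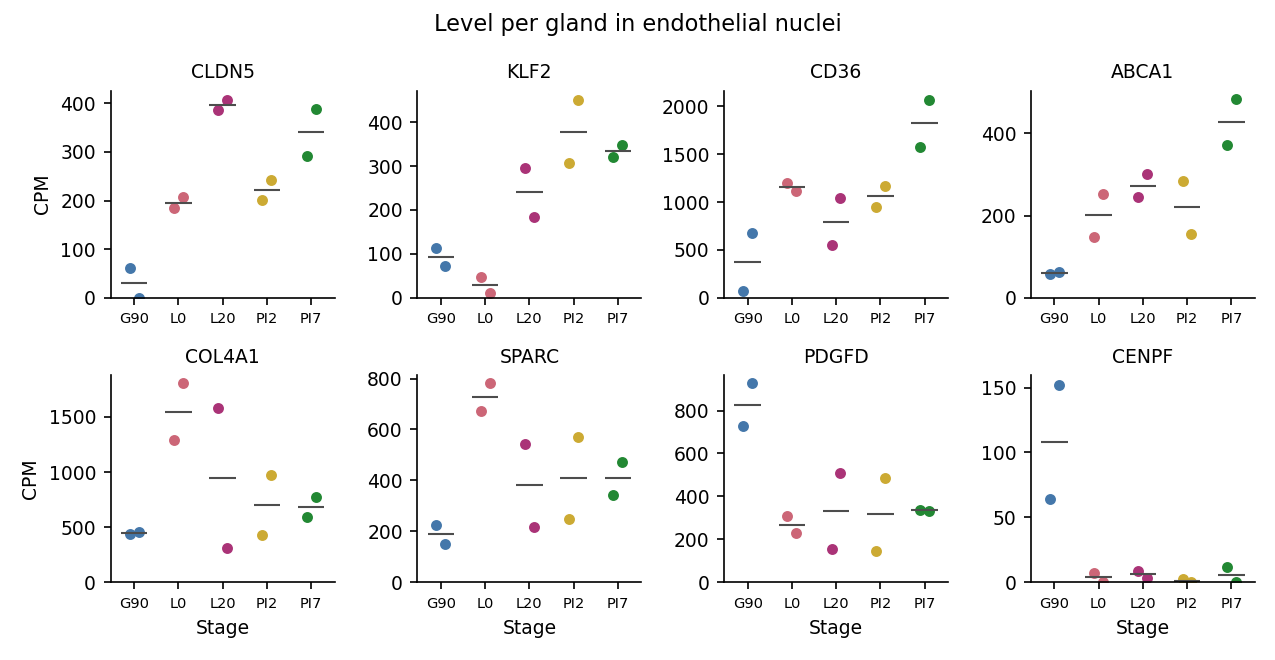
CPM of 8 genes in the summed endothelial nuclei, 1 point per gland and a line at the mean of each stage; the axes start at 0 and differ between panels. The 4 glands of G90 and L0 lie lowest for KLF2, between 11.5 and 114 CPM, and the G90 glands highest for CENPF, at 64.5 and 152 CPM. CENPF passed the filter on low counts only through the G90 glands, so its direction was set by that filter.

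Of 20 listed cell cycle genes, 8 passed the filter on low counts. All 8 were estimated lower at L0 than at G90 and 0 were called (median log2 fold change -2.42, and -1.86 without G90 replicate 2). The glands did not overlap for 6 of them. Genes that pass the filter only through G90 are set to be high there, so 37.1% of all genes tested is no fair background. CENPF, a kinetochore protein of dividing cells, stood at 64.5 and 152 CPM in G90, 7.57 and 0 in L0, 8.70 and 3.45 in L20, 2.44 and 0 in PI2, and 11.9 and 0 in PI7. Its G90 glands held 39 and 36 UMIs and lay above all 8 others (L0 against G90 log2 fold change -4.13, SE 1.23, edgeR adjusted p = 0.680). TOP2A, a topoisomerase of S phase and mitosis, stood at 34.7 and 80.0 CPM at G90 and at 21.7 or less later. Only the G90 glands brought CENPF and TOP2A over the filter, so their direction was set by it. The most highly expressed genes of the list did not keep to G90: NUSAP1, a spindle protein, stood at 122 and 109 CPM at G90 and 158 and 156 at PI7, and CENPE, a kinetochore motor, at 56.2 and 139 CPM at G90, 126 at L0 replicate 2 and 95.3 and 68.0 at PI7. In all other nuclei of the same glands the cell cycle sum was also highest at G90, at 1001 and 1823 CPM, against 589 and 758 CPM in endothelial nuclei, and free RNA from those nuclei was not tested.

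Of 10 NF-kB pathway genes, which inflammatory signals induce, 9 were estimated higher in lactation than in the other stages, against 49.6% of all genes (median log2 fold change 0.21), and 0 were called. Of 12 leukocyte adhesion genes, 8 were estimated higher in lactation (median log2 fold change 0.29) and 0 were called. VCAM1 stood at 78.2 CPM or more in both L20 glands and at 24.4 and 0 CPM in those of PI2 (log2 fold change -2.54, SE 0.89, edgeR adjusted p = 1). TNFAIP3, a brake on NF-kB signalling, stood at 24.4 and 17.3 CPM at PI2 and 66.8 and 69.8 at PI7 (log2 fold change 1.63, SE 0.63, edgeR adjusted p = 1). Its list did not share this rise: 4 NF-kB genes were estimated higher at PI7 than at PI2 and 6 lower (median log2 fold change -0.05). The chemokine CXCL2 ranged from 192 CPM at L20 replicate 2 to 1553 CPM at L20 replicate 1, the lowest and highest gland of the series. CXCL12 stood at 34.7 and 21.0 CPM in G90, 157 and 149 in L0, 34.8 and 74.7 in L20, 176 and 26.0 in PI2, and 267 and 301 in PI7, with no steady direction (L0 against G90 log2 fold change 2.39, SE 0.71, edgeR adjusted p = 0.680).

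Interferon-stimulated genes stood apart in a single gland. Their sum over 14 genes was 496 CPM at G90 replicate 1 and 8175 CPM at G90 replicate 2, and between 746 and 1983 CPM in the 8 later glands. The other nuclei of G90 replicate 2 held 4190 CPM, against 291 CPM in those of its partner. RSAD2, an antiviral enzyme, stood at 1191 CPM there and at 198 or less in the other 9. Of 14 genes tested, 13 were estimated lower at L0 than at G90 (median log2 fold change -1.93), and in none of the 14 did the L0 glands and the G90 glands separate. The direction rested on G90 replicate 2: without it 14 of 14 were estimated higher at L0, with a median log2 fold change of 1.37.

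Among genes of antigen presentation, B2M and CD74 were the most highly expressed, and the other 8 found had a mean of 221 CPM or less. B2M, the light chain of class I molecules, ran from 765 CPM at PI2 replicate 1 to 3765 CPM at PI2 replicate 2, and CD74, the class II invariant chain, from 509 CPM to 1610 CPM in the same glands. Their PI2 glands thus spanned the range of the series. Of 10 genes tested, 0 were called in any comparison.

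Hormone and growth receptor genes were estimated lower at L20 than at L0 for 9 of 10 tested, none called. Over the 13 genes found, the sum was 3764 and 5471 CPM at L0 and 2488 and 2631 at L20. In all other nuclei it was 2721 and 2973 CPM at L0 and 1438 and 2420 at L20, so the fall was not particular to endothelial nuclei. IGFBP7, a secreted insulin-like growth factor binding protein, was the highest of the list, at 1792 and 2908 CPM at L0 and 1744 and 870.5 at L20. IGF1R, the receptor of that growth factor, stood at 717 and 851 CPM at L0 and 213 and 613 at L20, without overlap. PRLR, the prolactin receptor, ranged from 21.7 to 661 CPM, and was lower in endothelial than in other nuclei over all glands (247 against 842 CPM).

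Lactation against the other stages separated few genes: 2 of 230 listed genes (0.870%), close to the 0.805% of all genes. ID2, an inhibitor of basic helix-loop-helix factors, stood at 177 and 299 CPM at L0 and 213 and 136 at L20, and at 21.0 to 111 in the other 6 glands, without overlap (log2 fold change 1.43, SE 0.40, edgeR adjusted p = 0.939). HYAL2, a hyaluronidase of the cell surface, stood at 136 to 213 CPM in the 4 lactation glands and 29.5 to 118 in the other 6, also without overlap (log2 fold change 1.12, SE 0.36, edgeR adjusted p = 1). ID1, a relative of ID2, did not separate, and ranged from 0 CPM at PI2 replicate 1 to 348 CPM at L20 replicate 1. The median mitochondrial share of UMIs in endothelial nuclei, a sign of RNA quality in nuclei, was 2.25% to 4.52% in the 4 lactation glands and 0.165% to 1.62% in the other 6, without overlap. DESeq2's 13 calls for lactation included 6 mitochondrial genes (ND1, ND2, ND4L, COX1, COX2 and COX3), whose edgeR log2 fold changes were 1.62 to 1.94 with a lowest adjusted p of 0.823. The part of the mitochondrial share in the values of this comparison was not tested. PLCB1, a phospholipase C, was chosen after its values were seen, as DESeq2 called it: it stood at 1377 and 4205 CPM in G90, 280 and 207 in L0, 531 and 527 in L20, 1540 and 978 in PI2, and 1035 and 718 in PI7. The 4 lactation glands lay below the other 6 (log2 fold change -1.92, SE 0.40, edgeR adjusted p = 0.516). A fit without G90 replicate 1 leaves 1 G90 library, at 4205 CPM, and takes its spread from the other stages. That fit is no support for a change in PLCB1. GPX3, a secreted glutathione peroxidase chosen in the same way, stood at 199 and 138 CPM at L0, 1161 and 416 at L20 and 29.5 to 378 in the other 6 glands, with overlap (log2 fold change 1.65, SE 0.35, edgeR adjusted p = 0.516).

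Milk genes were seen in the endothelial nuclei of every gland. Their sum over 6 genes was 271 and 5426 CPM in G90, 6869 and 4632 in L0, 635 and 72.4 in L20, 139 and 1264 in PI2, and 37.3 and 45.9 in PI7, and in every gland it lay below that of all other nuclei. CSN1S1, a casein, stood at 2492 and 1460 CPM at L0 and 34.8 and 24.1 at L20 (log2 fold change -6.17, SE 0.99, edgeR adjusted p = 0.114), and it was called by DESeq2 (adjusted p = 9.26e-10) and by edgeR without the filter on low counts (adjusted p = 6.35e-14), within a range up to 0.638 over all alternatives. Of the 100 genes with the smallest p for L20 against L0, 87 were lower in endothelial nuclei than in all other nuclei, against 58.1% of all genes tested. CLU, a secreted chaperone that was also lower in endothelial than in other nuclei, stood at 65.6 and 11.5 CPM at L0 and 735 and 256 at L20 (log2 fold change 3.30, SE 1.01, edgeR adjusted p = 0.490). CLU too was called by DESeq2 (adjusted p = 0.0497) and by edgeR without that filter (adjusted p = 0.000449), and its adjusted p reached 0.997 over the other alternatives.

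**Figure D5:**
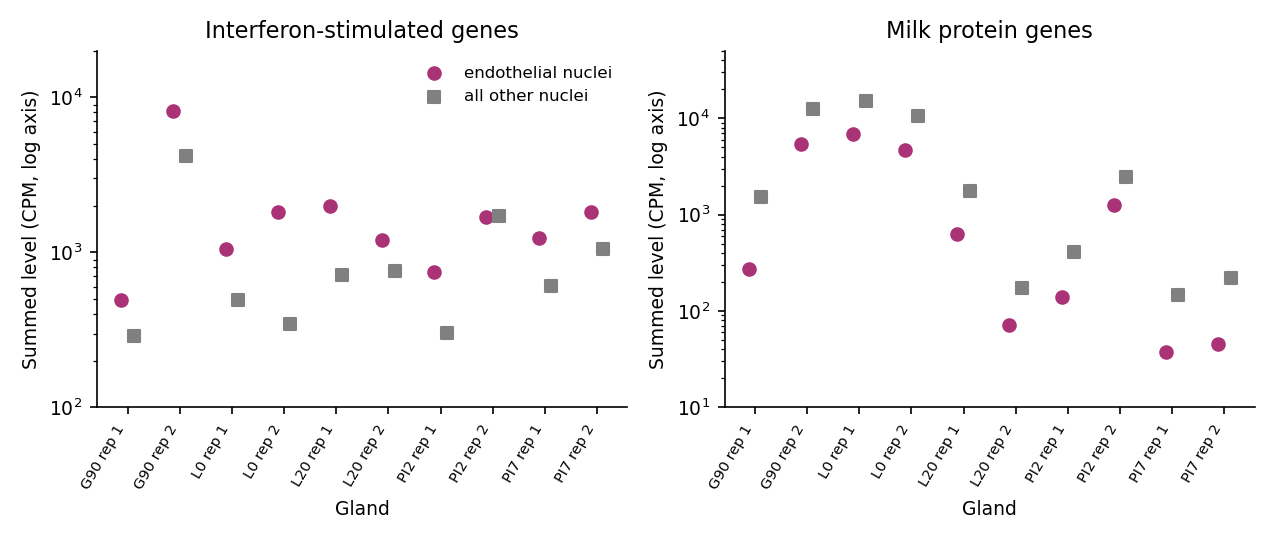
Summed CPM (log axis) of 14 interferon-stimulated genes and of 6 milk genes per gland, in endothelial nuclei (circles) and in all other nuclei (squares). The interferon sum peaks at G90 replicate 2 in both, at 8175 and 4190 CPM, and the milk sum of endothelial nuclei lies below that of other nuclei in all 10 glands.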

How the data were processed

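Nuclei were prepared and sequenced with the GEXSCOPE kit, and the authors processed the reads with CeleScope and aligned them to Sscrofa11.1. The deposited matrices hold raw UMI counts per gene and nucleus; spatial sections and milk cells were not used here. Endothelial nuclei were chosen by the gene rule given in the report, with members and gene lists chosen when earlier results of these data were known. Doublets were not called; nuclei with a UMI in any of the 7 excluded genes were left out, and UMIs of other genes of those cell types remain in the members. Symbols came from the files for 15457 of 28711 identifiers and from the reference for 639 more. UMIs were summed per gland, scaled to CPM, and tested in 1 edgeR 4.0.16 fit over all 10 glands (TMM, filterByExpr, 5 residual degrees of freedom) in R 4.3.3, with DESeq2 1.42.0 as an alternative. Standard errors were derived from the F statistics. The share was compared by exact permutation. The fit was tested on simulated data. Named genes were the most highly expressed of each list, since none was called; the others named were chosen after their values were seen. Same-numbered glands did not deviate together (correlations -0.27 to 0.13), so numbers were not treated as pairs. Alternatives covered normalization, filters, the nuclei chosen and leaving out each gland.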

Additional observations from a re-analysis of the deposited data

Results flagged for a closer look

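In the 4 lactation glands and in the other 6, the share of endothelial nuclei and the sum of each of 33 gene lists were examined for a gland far from the rest. The rule was set to flag about 5% of independent sets from a single population, and 8 of 68 sets held one. Lists share genes and the 6 glands mix stages, so this is no measure of an excess over chance. G90 replicate 2 accounted for 3: the interferon-stimulated sum of 8175 CPM with the next gland at 1813, the milk sum of 5426 CPM with the next at 1264, and the venous sum of 1057 CPM with the next lowest at 2826. PI2 replicate 2 was high for the angiogenic tip genes, at 1229 CPM with the next at 770.1, and for the VEGF and angiopoietin genes, at 2735 CPM with the next at 2155. L0 replicate 2 was high for the capillary genes, at 3885 CPM with the next lactation gland at 2585. G90 replicate 1 was high for the fibroblast markers, at 1958 CPM with the next at 821; FBN1, which was higher in endothelial than in other nuclei (657 against 131 CPM), supplied 1698 CPM of it, and DCN stood at 21.5 CPM there. PI2 replicate 1 was high for the adipocyte markers, at 115 CPM with the next at 46.1.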

How the results depend on the processing

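The difference in share kept its direction and stayed short of the threshold under all 17 alternatives, from -1.11 to -0.244 percentage points when 1 gland was left out. These never left out both PI7 glands together. The G90 and PI2 means, 1.09% and 1.25%, lay below the lactation mean of 1.30%, so the direction rested on PI7. The counts of called genes did not hold. For L0 against G90, 0 called genes became 17 with DESeq2, 64 without the filter on low counts, 1 without the 5% of nuclei with most UMIs, 506 with unadjusted p and the same fold threshold (kept in all counts by unadjusted p here), and 0 to 3 with 1 gland left out (3 without PI2 replicate 1, 2 each without G90 replicate 1, L20 replicate 1 or L20 replicate 2). For L20 against L0, 0 became 46 with DESeq2, 78 without the filter, 3 with only the glands compared, 2 with at least 3 vessel genes, 577 with unadjusted p, and 0 to 18 with 1 gland left out (18 without either G90 gland, 5 without either PI2 gland, 1 without L20 replicate 1). For PI2 against L20, 0 became 7 without the filter and 308 with unadjusted p, and stayed at 0 with any 1 gland left out. For PI7 against PI2, 0 became 1 with DESeq2, 11 without the filter and 145 with unadjusted p, and stayed at 0 with any 1 gland left out. For lactation against the other stages, 0 became 13 with DESeq2, 42 without the filter, 268 with unadjusted p, and 0 to 13 with 1 gland left out (13 without G90 replicate 1, 4 without PI2 replicate 2, 1 without G90 replicate 2). The replicate block, over numbers that do not pair the glands, gave 0 called genes in each comparison and an exact permutation p = 0.420 for the share. Counting AQP1 by its reference name, an alternative chosen after seeing the data, gave 0 called genes and a share difference of -0.800 percentage points. Of 583 values of the named genes' fold changes under alternatives, 0 changed sign, 557 stayed on the same side of the threshold and 26 crossed into a call. These values cover 27 results of a gene in a comparison, nearly all with glands that did not overlap. The kept sign was thus largely set by the choice of genes and is no measure of robustness. Of DESeq2's 46 calls for L20 against L0, 42 were lower in endothelial than in other nuclei. Where a stage is left with 1 gland, that gland is assumed to vary like the others. The cause of these changes was not tested, and DESeq2 gave no adjusted p for 8273 genes in the lactation comparison. Depth was limiting at L0 replicate 2 and PI2 replicate 2, with 52 and 55 nuclei.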
